A study of Mus musculus with 18 samples.

Results

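The regions described here are Ago2 peaks that lie in exons and carry a perfect 8-mer match to a miRNA seed. They are the merged peaks that the authors annotated as exon, a class kept apart from the 3' and 5' UTR classes, and for which the authors listed at least 1 miRNA family with an 8-mer match. The class holds coding exons and the exons of noncoding RNAs. Of 5554 merged peaks, 491 met this rule, 1 further hit in the rRNA locus having been left out. The remaining 1216 exon peaks had no 8-mer, while 856 peaks in 3' UTRs had one and 2126 did not. The rule itself used no read count, but the authors had called the peaks on reads of the genotypes compared below.

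The peaks come from HEAP libraries of mouse colonic epithelium, a CLIP-seq variant: UV light fixes RNA to Argonaute 2 (Ago2), the Halo tag on Ago2 is used to capture it, and the bound miRNAs and target fragments are sequenced. The G12D mice were Halo-Ago2/+; Fabp-Cre/+; K-Ras-G12D/+, and their controls were Halo-Ago2/+; Fabp-Cre/+ with wild-type K-Ras (WT). All were C57BL/6 mice of 8 to 12 weeks, and in all of them Cre was driven by a fatty acid binding protein promoter, which is used to express Cre in gut epithelium. Each genotype had 3 pulldown libraries and 3 miRNA libraries from distal colon that was scraped for epithelium and crosslinked 3 times at 400 mJ/cm2.

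Ago2 holds a miRNA and pairs its seed, the bases near the 5' end, with a target RNA. An 8-mer site pairs with bases 2 to 8 of the miRNA and has an A opposite the first base, and it is the strongest of the canonical seed matches. Sites in 3' UTRs are known to repress more than sites in coding exons, where translating ribosomes pass over the bound Ago2. K-Ras-G12D is an oncogenic form of K-Ras that stays bound to GTP and keeps the RAS-MAPK pathway active.

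The miRNAs whose families had the most exon 8-mer peaks, or whose peaks carry the results below, are shown with bases 2 to 8 in capitals, since those bases define the 8-mer. Sequences are from RefSeq (GRCm38.p6).
let-7b-5p: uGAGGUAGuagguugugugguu
miR-200c-3p: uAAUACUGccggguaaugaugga
miR-16-5p: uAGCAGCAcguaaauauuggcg
miR-22-3p: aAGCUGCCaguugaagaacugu
miR-194-5p: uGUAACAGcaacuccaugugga
miR-27a-3p: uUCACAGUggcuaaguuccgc
miR-29a-3p: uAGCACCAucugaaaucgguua
miR-24-3p: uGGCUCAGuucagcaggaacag
miR-26a-5p: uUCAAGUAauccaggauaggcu
miR-30e-5p: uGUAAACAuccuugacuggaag
miR-96-5p: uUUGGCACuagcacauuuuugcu
miR-210-3p: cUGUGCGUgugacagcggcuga
The 8-mer in the target DNA is therefore CTACCTCA for let-7, CAGTATTA for miR-200b, miR-200c and miR-429, GTGCCAAA for miR-96 and ACGCACAA for miR-210. The site labels are the authors', and the bases of the peaks were not read here.

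Sites of 63 miRNA families were present among the 491 peaks, and 24 families had at least 5 peaks. The let-7/miR-98 family was far ahead with 104 peaks, 21.2% of the total. It was followed by miR-200b/c/429 with 38, miR-15/16 with 36, miR-22 with 30, miR-194 with 27, miR-27 with 23, miR-29 with 22 and miR-24 with 20. Let-7 regulates proliferation and differentiation, the miR-200 family maintains the epithelial state, and miR-194 is an intestinal epithelial miRNA. For let-7, exon 8-mer peaks outnumbered 3' UTR 8-mer peaks, with 104 against 93. The miR-22 family had 30 in exons against 31 in 3' UTRs. At the other end, miR-17/20/93/106 had 12 against 55, and miR-19 had 1 against 33. Over the 63 families the exon and 3' UTR numbers had a Spearman rank correlation of 0.71, given as a description since peaks of both classes come from the same libraries.

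A high miRNA level did not always go with many sites. miR-21a-5p, the miRNA with the highest mean of all, had 1 exon 8-mer peak, in Ctsb, the lysosomal protease cathepsin B, and 13 in 3' UTRs. The Ctsb peak held 16.4, 18.6 and 15.1 normalized reads in G12D libraries and 25.5, 2.90 and 20.6 in WT libraries. These values overlapped (log2 fold change 0.43 ± 0.69 SE, limma adjusted p = 0.615). Over the 24 larger families, the summed level of the family's miRNAs and its number of exon 8-mer peaks had a Spearman rank correlation of 0.49. The most numerous family, let-7, was led by let-7b-5p, which ranked 29th by mean. As a family its 9 miRNAs summed to a mean of 12950 normalized reads. The sums were 52246 for miR-200b/c/429, 5377 for miR-15/16, 5401 for miR-22 and 24413.5 for miR-194.

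**Figure D1:**
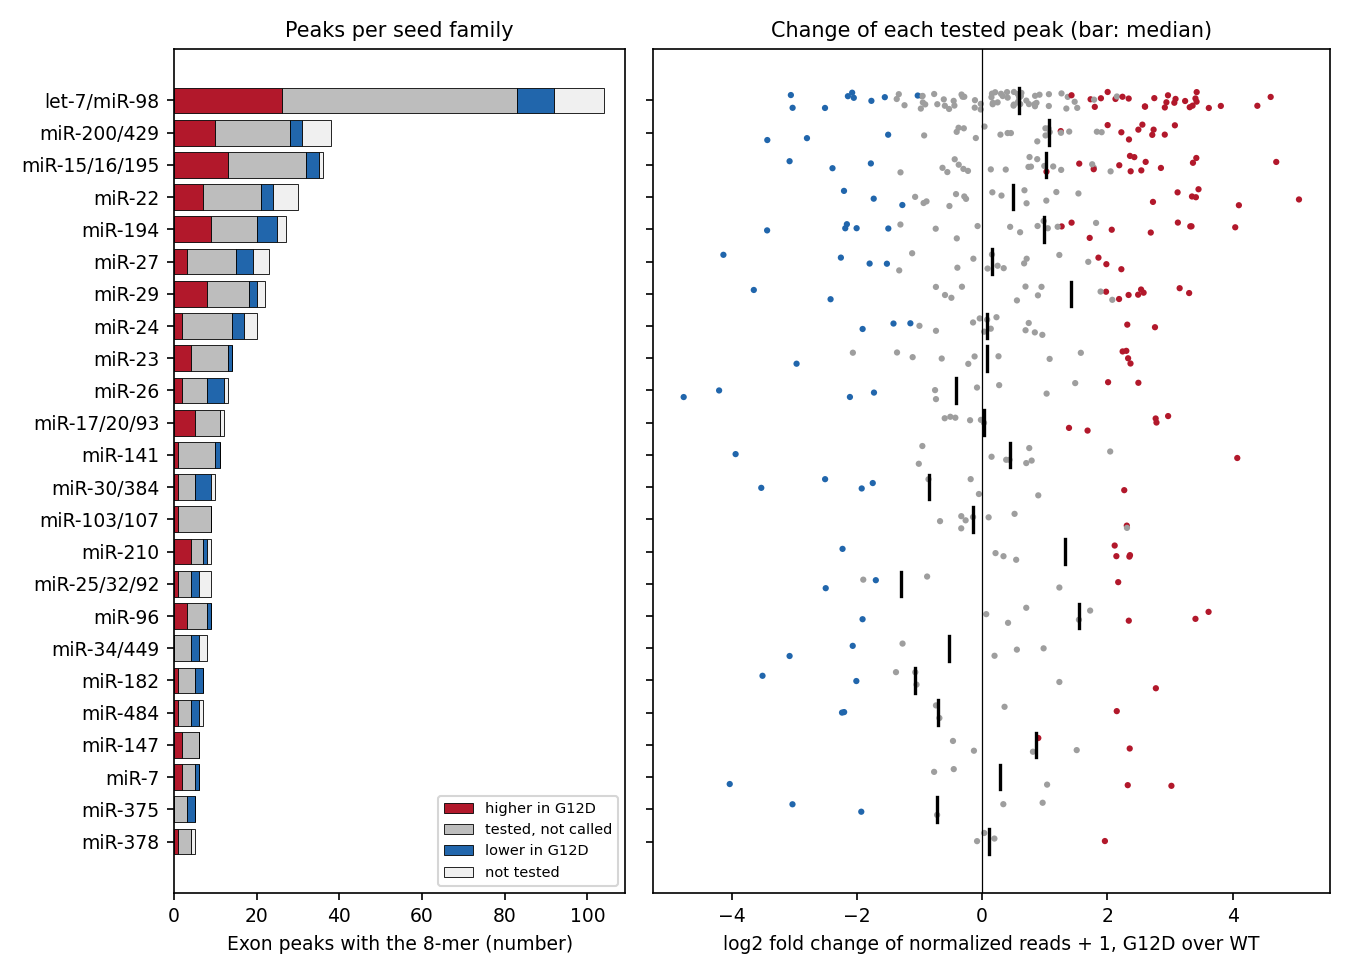
Exon 8-mer peaks of the 24 miRNA seed families with at least 5 of them. Left, the number of peaks per family, divided into those higher in G12D, tested but not called, lower in G12D and not tested; right, the log2 fold change of each tested peak, G12D over WT, with a bar at the family median. The let-7 family has 104 peaks and its tested peaks spread on both sides of 0, from -3.05 to 4.61.

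The 491 peaks were 31 to 130 bases wide with a median of 55. They lay in 447 genes or gene pairs, of which 414 held 1 such peak, 26 held 2 and 7 held 3 or more. Protein-coding genes held 459 of them. The noncoding RNAs Neat1 and Malat1 held 9, and 5 were mitochondrial. A 2nd family with an 8-mer was listed for 26 peaks. The authors also listed shorter matches to some family, labelled 7m8 for 159 peaks, 7A1 for 126 and 6-mer for 294. Only 92 peaks had 1 8-mer family and no other match. Each site is named here by its 8-mer family, and which miRNA was bound at it was not tested. Of all exon peaks 28.8% had an 8-mer (Wilson 95% interval 26.7 to 31.0%), as did 28.7% of 3' UTR peaks (27.1 to 30.4%), 43.1% of intron peaks (38.6 to 47.8%) and 29.1% of 5' UTR peaks (22.7 to 36.4%). The exon and 3' UTR shares thus lay within each other's counting error.

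Depth differed between the pulldown libraries, with 148927 to 723937 reads in merged peaks in G12D libraries and 54401 to 148770 in WT libraries. The miRNA libraries held 337788 to 433245 reads in G12D and 437439 to 535932 in WT. Of the 491 peaks, 5 to 11 had 0 reads in a G12D library, against 60 to 112 in a WT library. At nearly the same depth, G12D replicate 1 with 148927 reads had 11 such peaks and WT replicate 3 with 148770 reads had 64. Over all 5554 merged peaks, 177 and 1327 had 0 reads in those libraries. The authors had called 320 of the 491 peaks in the G12D list only and 45 in the WT list only. These numbers are therefore not independent of the peak calling. The labelled tissue could be checked on the peaks: all 9 defining markers of colonic epithelium had peaks, 5 of them (Krt20, Vil1, Cdh17, Muc2 and Car1) among the exon 8-mer peaks. None of 15 stromal, 4 endothelial or 5 neuronal and glial markers had any peak, and 1 of 14 blood markers, Igha, did, with 136 to 359.9 normalized reads in G12D libraries and 18.04 to 31.9 in WT libraries, outside the 491. What part such cells had in any result below was not tested. In bulk tissue, fewer cells of a type and less RNA per cell cannot be told apart, and since the input libraries are not analysed here, more Ago2 on a site and more of its transcript cannot be told apart either.

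Exon 8-mer peaks took a larger share of the pulldown in G12D mice. Outside the rRNA locus they held 14.8, 15.1 and 15.7% of the reads in merged peaks in the G12D libraries and 12.6, 12.0 and 13.5% in the WT libraries, so the 2 genotypes did not overlap. The means were 15.2 ± 0.476% in G12D and 12.7 ± 0.726% in WT (SD, n = 3 each), a difference of 2.51 percentage points. Among exon peaks alone, the share was 39.7 ± 0.817% in G12D and 28.6 ± 0.658% in WT. Over the peaks that the authors had called in both genotypes, the difference was 0.986 percentage points, with 10.003 ± 0.729% in G12D and 9.02 ± 0.730% in WT, and here the genotypes overlapped, at 9.51, 9.66 and 10.8% in G12D and 8.69, 8.51 and 9.85% in WT. The reads were concentrated: the 10 highest of the 491 peaks held 28.7% of the normalized reads. Of these 10, the peaks in Muc2 and Actb, given below, gained the most reads in G12D, and the share without them was not computed. The difference in share therefore need not describe most of the 491 peaks.

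Single peaks moved in both directions between the genotypes. Of the 491 peaks 440 had a mean of at least 5 normalized reads and were tested, and 116 were higher and 65 lower in G12D (limma on log2(normalized reads + 1), Benjamini-Hochberg adjusted p under 0.05). Among all 4438 tested peaks of the series, 36.2% were higher and 12.7% lower, 48.9% being called in either direction. Against that background the exon 8-mer peaks had a smaller share of higher calls, 26.4%, and a slightly larger share of lower calls, 14.8%. Their median log2 fold change was 0.48, against 1.05 for all tested peaks. Among peaks with a mean of 20 or more the medians were both 0.13, so the contrast was not present there. The 3 G12D libraries lay above all 3 WT libraries in 147 peaks and below them in 85, against 43.9% and 15.2% of all tested peaks, or 59.1% apart in either direction. Of the untested peaks, the 5 mitochondrial ones had 0 reads in every library.

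The balance of higher and lower calls depended on the scaling of the libraries and on the tool. With the test kept and only the scaling changed, 78 were higher and 111 lower with quantile normalization, and 141 and 63 with equal totals. With both the count model and the scaling changed, 80 were higher and 113 lower in edgeR and 83 and 99 in DESeq2. The median of the exon 8-mer peaks was then -0.26, 0.67, -0.11 and 0.11 in that order, and that of all tested peaks 0.10, 1.23, 0.47 and 0.66. No called peak changed sign under any of these settings. Under all 4 of them, 64 of the 116 higher and 61 of the 65 lower peaks were still called. Without G12D replicate 2 or without G12D replicate 3 the higher calls numbered 75 in each case.

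Direction was tied to the list in which the authors had called a peak. By an overlap of at least 1 base, 320 exon 8-mer peaks were in the G12D list only, 126 in both lists and 45 in the WT list only. Of those in the G12D list only, 97 were higher and 4 lower among 270 tested, with a median log2 fold change of 1.16. Of those in both lists, 18 were higher and 30 lower among 125 tested, with a median of -0.47. Of those in the WT list only, 1 was higher and 31 lower among 45 tested, with a median of -2.08. The shares were 35.9% higher in the G12D list only, 14.4% higher and 24.0% lower in both, and 68.9% lower in the WT list only. Over all tested peaks of the series these shares were 47.0%, 13.9% and 25.6%, and 74.3%, in the same order. Their medians were 1.68, -0.45 and -2.81, so the tie to the lists was also present in the whole series. The lists were called on reads of the 2 genotypes, so they are not independent of these directions. Exon 8-mer peaks were in both lists more often than peaks of the whole series, with 25.7% against 15.02%, while 21.4% of 3' UTR 8-mer peaks and 17.1% of exon peaks without an 8-mer were in both, and these differences were not tested.

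**Figure D2:**
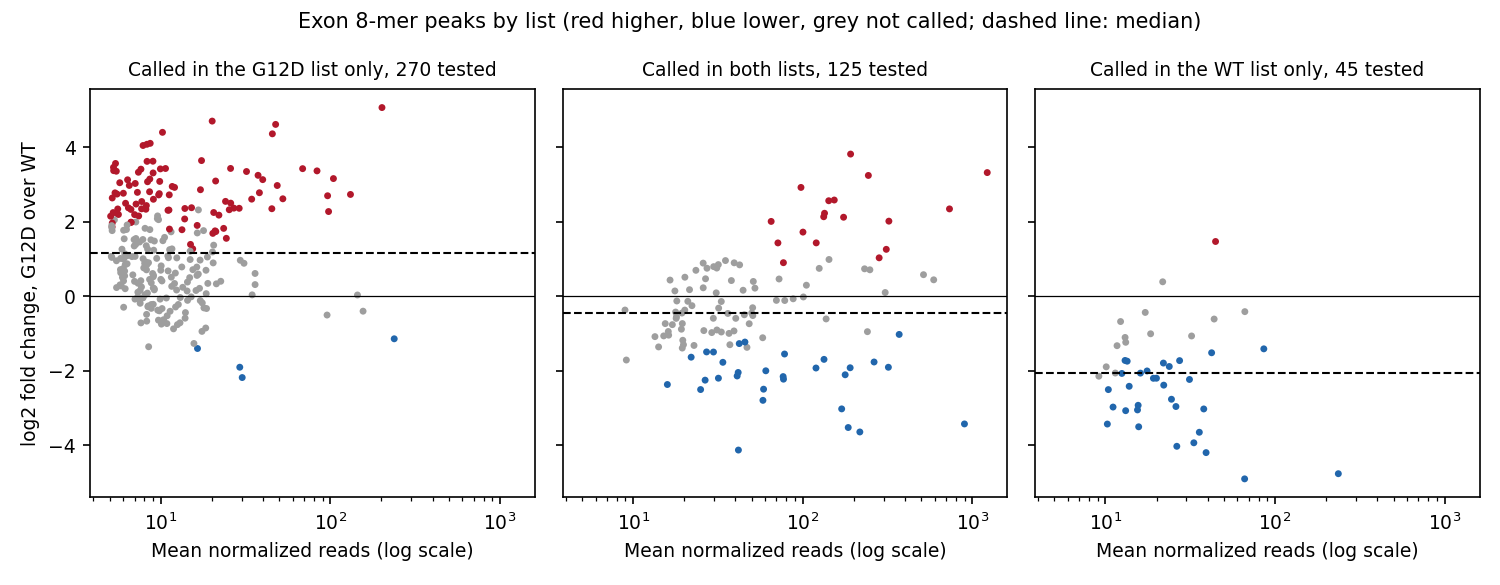
Mean normalized reads over the 6 pulldown libraries (log axis) and log2 fold change, G12D over WT, of the tested exon 8-mer peaks, by the authors' list in which they were called. Red, blue and grey points are higher, lower and not called; dashed lines mark the medians of 1.16, -0.47 and -2.08.

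Within a list, the medians of exon 8-mer peaks were set beside those of 3 other classes. Among peaks of both lists, the median was -0.47 for exon 8-mer peaks, -0.76 for exon peaks without an 8-mer, -0.53 for 3' UTR 8-mer peaks and -0.15 for 3' UTR peaks without one. Among peaks of the G12D list only, the 4 medians were 1.16, 1.497, 1.24 and 1.72 in the same order, and among peaks of the WT list only they were -2.08, -2.39, -2.85 and -2.02. Exon peaks without an 8-mer had 295 higher and 201 lower calls among 995 tested, and 3' UTR 8-mer peaks had 223 and 79 among 746. These are descriptions, and the differences between classes were not tested.

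**Figure D3:**
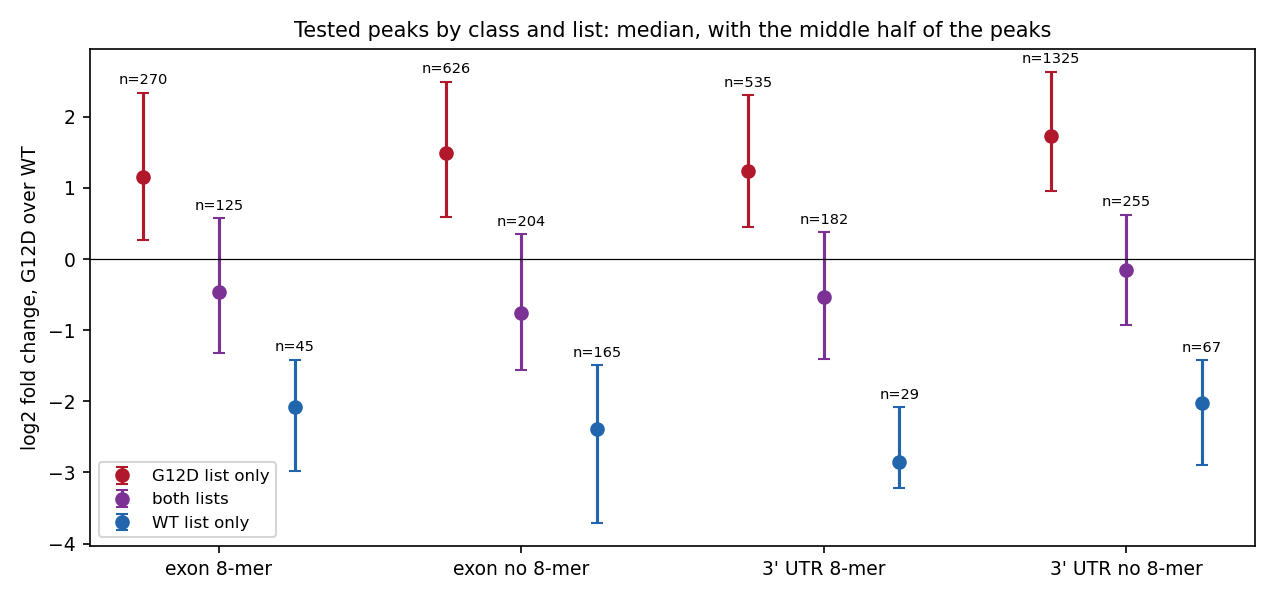
Log2 fold change, G12D over WT, of tested peaks in 4 classes, by the authors' list. Points are medians, bars run between the lower and upper quartile, and n is the number tested; in every class the median of the G12D list is above 0 and that of the WT list below it.

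The peak with the highest mean of all 491 was in Muc2, the gel-forming mucin of goblet cells, at a let-7 site (chr7:141691356-141691406, plus strand, GRCm38 as for all positions here). It held 1761, 1941 and 2925 normalized reads in G12D libraries, against 346, 269.5 and 107 in WT libraries. Every G12D library was far above every WT library (log2 fold change 3.32 ± 0.47 SE, limma adjusted p = 0.000333). The next peak moved the other way. It was a miR-200b/c/429 site in Fryl, a large protein of the Furry family (chr5:73041543-73041595, minus strand), with 124, 189 and 107 normalized reads in G12D against 1579, 783 and 2611 in WT. The groups were well apart (-3.43 ± 0.46, limma adjusted p = 0.000291), and this 1 site held 40.8% of the reads of all exon miR-200b/c/429 peaks. A let-7 site in Actb, cytoplasmic beta-actin (chr5:142904547-142904600, minus strand), had 1237, 1132 and 1282 in G12D against 236, 165 and 351 in WT (2.34 ± 0.38, limma adjusted p = 0.00061).

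Of the next 7 peaks by mean, 2 were higher, 2 lower and 3 not called. Cyfip1, a subunit of the WAVE complex that drives actin branching, had a miR-26 site with 371, 647 and 521 normalized reads in G12D against 108, 86.9 and 198 in WT (log2 fold change 2.01 ± 0.39 SE, limma adjusted p = 0.0018). Atp1b1, the beta subunit of the sodium-potassium pump, had a miR-200b/c/429 site with 340.3, 546 and 425 in G12D against 244, 133 and 177 in WT (1.26 ± 0.36, limma adjusted p = 0.0131). The groups did not overlap in either, although the Atp1b1 call was lost without G12D replicate 2 (limma adjusted p = 0.0632), without the variance trend (limma adjusted p = 0.0574) and in edgeR (0.71, adjusted p = 0.134). The lower peaks were in Pigr and Hmgcs1. Pigr, the receptor that carries IgA across the epithelium, had a miR-96 site with 117, 123 and 163 in G12D against 552, 417 and 548 in WT (-1.91 ± 0.33, limma adjusted p = 0.000847). Hmgcs1, an early enzyme of cholesterol synthesis, had a let-7 site with 201, 227 and 310.2 in G12D against 537, 484 and 464 in WT (-1.03 ± 0.33, limma adjusted p = 0.0234). The Hmgcs1 call was lost without G12D replicate 1, G12D replicate 2 or WT replicate 1 (limma adjusted p = 0.0949, 0.0768 and 0.0553), without the variance trend (0.0887) and with quantile normalization (-0.53, limma adjusted p = 0.131). The 3 peaks not called lay in Lypd8, a surface protein that keeps bacteria off the colonic epithelium (0.44 ± 0.36), in the lipid flippase Atp10b (0.58 ± 0.34) and in Krt20, a keratin of mature colonocytes (0.10 ± 0.40). Quantile normalization called Lypd8 and Atp10b as higher (limma adjusted p = 0.000263 and 0.000323), whereas the Krt20 value was -0.55 in edgeR.

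**Figure D4:**
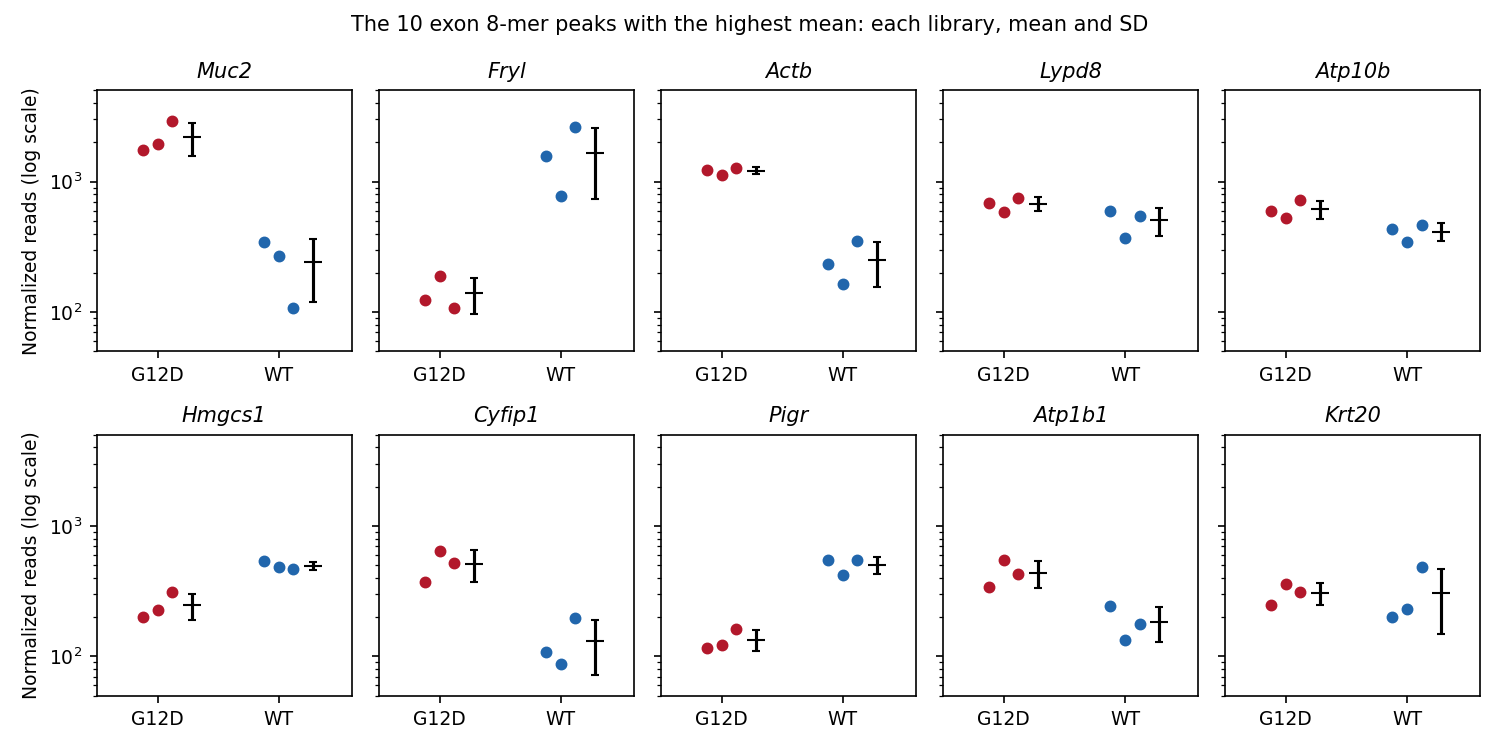
Normalized reads (log axis) of the 10 exon 8-mer peaks with the highest mean, in each G12D and WT pulldown library, with the mean and SD at the right of each group. The groups are apart in 8 panels, and overlap in Lypd8 and Krt20.

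Within the families, most had peaks going both ways. For comparison, 36.2% of all tested peaks of the series were higher and 12.7% lower. Let-7 had 26 higher and 9 lower among 92 tested (median log2 fold change 0.58), and the summed normalized reads of its exon peaks were 7702 ± 1253 in G12D and 4093 ± 481 in WT (SD, n = 3 each). Averaged over all pulldown libraries, Muc2 gave 20.8% of these reads. The Muc2 and Actb peaks, both let-7 sites given above, rose strongly, so the family sum need not describe most of its peaks. The miR-15/16 family had 13 higher and 3 lower among 35 (median 1.03), with 1130.3 ± 216 in G12D and 568 ± 104 in WT. miR-29 had 8 higher and 2 lower among 20 (median 1.42), and miR-194 had 9 and 5 among 25 (median 0.98). The families below 0 were smaller. Besides the 3 given next, they were miR-25/32/92 at a median of -1.29, miR-182 at -1.07, miR-484 at -0.71, miR-34/449 at -0.54 and miR-103/107 at -0.14. miR-30 had 1 higher and 4 lower among 9 tested (median -0.86), with 330.4 ± 87.2 in G12D and 803 ± 312 in WT, miR-26 had 2 and 4 among 12 (median -0.41, with 2 of the 4 in multi-copy 5S rRNA loci), and miR-375 had 0 and 2 among 5 (median -0.72). In miR-96 the median was 1.55 with 3 higher and 1 lower among 9, yet the sum was 244 ± 44.4 in G12D and 549.5 ± 82.5 in WT, the lower peak, in Pigr, holding 80.7% of the family's reads.

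The highest peak of a family often stood for much of its reads. The miR-15/16 peak was in Anks4b, a protein of the microvillus tip links, with 213, 377 and 575 normalized reads in G12D against 189, 151 and 189 in WT. It just passed (log2 fold change 1.03 ± 0.39 SE, limma adjusted p = 0.0473) and was lost in 5 of the 6 fits that left out 1 library, at limma adjusted p between 0.0790 and 0.193, the exception being the fit without G12D replicate 1. It was also lost in edgeR (0.56, adjusted p = 0.252) and DESeq2 (0.76, adjusted p = 0.123). The miR-27 peak, which also had a miR-200b/c/429 8-mer, was in Cpeb4, a cytoplasmic polyadenylation factor, and rose by 2.22 ± 0.35 on the log2 scale (limma adjusted p = 0.000518). Lower peaks led several families. The miR-30 peak in the endosomal adaptor Appl2 had 49.1, 69.5 and 111 in G12D against 355, 145 and 414 in WT (-1.92 ± 0.45, limma adjusted p = 0.00476). The miR-375 peak in Nipbl, which loads cohesin, was at -1.93 ± 0.41 (limma adjusted p = 0.0029), and the miR-484 peak in the glycolytic enzyme Aldoa at -2.24 ± 0.49 (limma adjusted p = 0.00333). The miR-23 peak in Ppp1r15b, a regulatory subunit of the eIF2 alpha phosphatase, was at -2.96 ± 0.50 (limma adjusted p = 0.000781). The miR-25/32/92 peak carried the gene label AC167815.1 and was at -1.70 ± 0.38 (limma adjusted p = 0.00396). The miR-24 peak in the formin Daam1 was at -1.15 ± 0.37 (limma adjusted p = 0.0245), and was lost without G12D replicate 1 or 2 or WT replicate 1 or 3 (limma adjusted p between 0.0637 and 0.110), without the variance trend (0.0859) and with quantile normalization (-0.72, limma adjusted p = 0.0711). Peaks that led a family without passing by limma lay in Trip11 for miR-194 (-0.40 ± 0.44), Tnrc6b for miR-17/20/93/106 (0.03 ± 0.35), Ubqln1 for miR-103/107 (-0.14 ± 0.39), Gapdh for miR-34/449 (0.56 ± 0.57), Maoa for miR-7 (-0.45 ± 0.38), Zbp1 for miR-378 (0.03 ± 0.41) and Spag9 for miR-182 (-1.38 ± 0.57), the last being called as lower without WT replicate 2 (limma adjusted p = 0.0092). Spag9 was also called as lower in edgeR (-1.96, adjusted p = 0.000791), in DESeq2 (-1.80, adjusted p = 0.0104), with quantile normalization, with a pseudocount of 5 and with the replicate block (limma adjusted p = 0.0162, 0.0402 and 0.0322). Trip11 and Maoa were called as lower in edgeR (-1.08 and -1.03, adjusted p = 0.0296 and 0.0457). The miR-147 peak, in the GTPase-activating protein Arhgap12, was at 0.90 ± 0.33 (limma adjusted p = 0.0389), and was lost without G12D replicate 2 or 3 or WT replicate 1 or 3 (limma adjusted p between 0.0610 and 0.111), in edgeR (0.37, adjusted p = 0.497) and in DESeq2 (0.57, adjusted p = 0.221).

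The miRNAs of these families were measured in separate libraries. Among the miRNAs of the 24 families 7 were higher and 1 lower in G12D, where 9.06% of all 254 tested miRNAs were higher and 6.69% lower (limma, adjusted p under 0.05). The share of the family miRNAs called was not computed, so no difference from all miRNAs is claimed. miR-210-3p, which is induced by hypoxia, had 8987, 7577 and 7651 normalized reads in G12D against 4346, 4929.9 and 4091 in WT (log2 fold change 0.86 ± 0.20 SE, limma adjusted p = 0.00321). Its exon 8-mer peaks had 4 higher and 1 lower calls among 8 tested, while its 3' UTR 8-mer peaks had 0 higher and 3 lower among 8. miR-27a-3p was at 1.10 ± 0.19 (limma adjusted p = 5.57e-05), while the exon peaks of its family had 3 higher and 4 lower calls among 19. The family's 3' UTR 8-mer peaks had 11 higher and 3 lower calls among 36 tested, with a median log2 fold change of 0.87 against 0.16 in exons. The other higher miRNAs were miR-30b-5p at 0.82 ± 0.23, miR-26a-5p at 0.61 ± 0.17, miR-92a-3p at 0.61 ± 0.21, miR-200b-3p at 0.56 ± 0.19 and miR-194-5p at 0.53 ± 0.18, the last 2 with overlapping groups, and the lower one was miR-449a-5p at -1.27 ± 0.43. let-7b-5p had 4318 ± 1034 in G12D and 4319.6 ± 931 in WT (SD, n = 3 each), with overlapping values. The number of miRNA calls varied with the scaling, with 1 higher and 4 lower at equal totals and 2 and 2 under quantile normalization. It also varied with the test, with 0 higher and 1 lower without the variance trend, 3 and 2 in edgeR and 4 and 1 in DESeq2, the scaling of the last 2 differing too. Without a single library it ran between 3 and 11 higher and 0 and 4 lower, 3 higher remaining without G12D replicate 2 or WT replicate 3, 4 without G12D replicate 3 and 11 without WT replicate 1, and 0 lower without G12D replicate 2, WT replicate 1 or WT replicate 3 and 4 without WT replicate 2. Of the 8 called miRNAs, miR-27a-3p and miR-210-3p were called in each of the 6 fits without 1 library. miR-210-3p was lost without the variance trend, at equal totals and with quantile normalization (limma adjusted p = 0.0640, 0.0602 and 0.0546), and miR-27a-3p was lost without the trend (limma adjusted p = 0.0585).

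Among called peaks whose groups did not overlap, the largest rise was at a miR-22 site in Rab35, a small GTPase of endosomal recycling (chr5:115640073-115640118, plus strand). It held 470.0, 324 and 381 normalized reads in G12D against 10.6, 14.5 and 7.73 in WT (log2 fold change 5.06 ± 0.36 SE, limma adjusted p = 2.09e-05). Rab35 and the Malat1, Lgals3bp and Erbb2ip peaks below exceeded 3.81, the highest value of peaks in both lists. They were thus in the G12D list only, so their direction is not independent of that list. The other 7 of the 8 largest rises had far fewer reads. Malat1 at a miR-15/16 site had 38.2, 57.1 and 23.0 in G12D against 2.12, 0 and 0 in WT (4.70 ± 0.70, limma adjusted p = 0.000414), and the WT value rested on 1 read, so that the ratio of depth-scaled counts was 81.1 with an exact 95% counting interval of 14.5 to 3212. Lgals3bp, a secreted galectin-binding glycoprotein, had 145, 66.4 and 60.3 in G12D at a let-7 site against 10.6, 0 and 2.58 in WT (4.61 ± 0.77, limma adjusted p = 0.000774). Erbb2ip, the scaffold protein Erbin, had 54.5, 113 and 93.4 in G12D at a miR-146 site against 2.12, 8.69 and 1.29 in WT (4.36 ± 0.59, limma adjusted p = 0.000293). Oasl1, Kctd3, Pdcd6ip and Wnk1 had 0 reads in all WT libraries. With a floor of 3 reads over the WT group, Oasl1, an interferon-induced gene, was at least 9.90-fold higher in G12D at its let-7 site, and Kctd3 at least 9.82-fold at its miR-22 site. Wnk1, a kinase that controls ion transport, was at least 8.17-fold higher at its miR-194 site, and Pdcd6ip, the ESCRT-associated protein Alix, at least 7.54-fold at its miR-141/200a site.

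The largest falls included 4 peaks in small noncoding RNA genes with many near-identical copies, whose reads cannot be placed with certainty. These were the 5S rRNA loci n-R5s150, n-R5s205 and n-R5s86, at -4.91 ± 0.65, -4.77 ± 0.70 and -4.20 ± 0.75, and a peak labelled both Gm23330 and Dnajc5b at -3.65 ± 0.47. The 5S peaks fell further than any exon 8-mer peak in both lists. They were thus in the WT list only, so their direction is not independent of that list. The other 4 lay in protein-coding genes, of which 3 are given. Aff1, a scaffold of transcription elongation complexes, had 3.27, 1.24 and 2.15 in G12D at a miR-7 site against 61.6, 43.5 and 46.4 in WT (-4.03 ± 0.52, limma adjusted p = 0.000274). Vbp1, a prefoldin subunit, had 1.09, 3.09 and 6.46 in G12D at a miR-141/200a site against 44.6, 55.1 and 88.9 in WT (-3.94 ± 0.57, limma adjusted p = 0.000382). Slc37a2, a sugar phosphate transporter, had 22.9, 20.6 and 55.3 in G12D at a miR-29 site against 471, 484 and 249 in WT (-3.65 ± 0.44, limma adjusted p = 0.000215). In each of the 3 every G12D library was below every WT library. Of the 417 tested peaks in protein-coding genes, 25.7% were called higher and 13.4% lower.

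Genes of colonocytes and goblet cells held 18 of the exon 8-mer peaks, in 12 of 42 listed genes. Of these 6 rose, 2 fell and 10 did not pass, with a median log2 fold change of 0.61 against 1.53 over all 194 tested peaks of the list, of which 95 were higher and 24 lower. Car1, the carbonic anhydrase of colonocytes, had 474, 413 and 434 normalized reads in G12D against 51.0, 58.0 and 32.2 in WT (3.24 ± 0.34 SE, limma adjusted p = 0.000127), at a peak with 8-mers for miR-362 and miR-151. This and the other peaks named here beyond the first 2 of each list were picked after their values were seen. The water channel Aqp8 rose at a miR-15/16 site (2.61 ± 0.46), the mucus protein Fcgbp at a miR-30 site (2.27 ± 0.36) and the microvillar villin Vil1 at a miR-194 site (1.43 ± 0.31), with limma adjusted p of 0.00108, 0.000595 and 0.00328. The Vil1 call was lost in edgeR (0.91, adjusted p = 0.0653). Pigr held 3 of these peaks, which went in opposite directions. Its miR-210 site (chr1:130844657-130844707, plus strand) had 202, 251 and 404 in G12D against 61.6, 72.5 and 54.1 in WT (2.12 ± 0.35, limma adjusted p = 0.000756). Its miR-96 site, described among the 10 highest peaks, lay at chr1:130848464-130848517, and its miR-24 site at chr1:130849732-130849786 had 30.5, 65.2 and 47.4 in G12D against 123, 107 and 142 in WT (-1.42 ± 0.37, limma adjusted p = 0.00822).

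Genes of the actin cytoskeleton and cell junctions held 12 exon 8-mer peaks, of which 4 rose and 4 fell (median log2 fold change -0.14). Over all 103 tested peaks of the list 38 were higher and 17 lower (median 0.87). Besides Actb, the peaks that rose were in the brush border myosin Myo1a (2.78 ± 0.58 SE) and the cytoskeletal linkers Macf1 (3.32 ± 0.66) and Dst (2.15 ± 0.74), with limma adjusted p of 0.00254, 0.00209 and 0.0315. The Macf1 peak had 1 WT read in all, and its ratio of depth-scaled counts was 28.05 with a counting interval of 4.94 to 1117. The peaks that fell included those in nonmuscle myosin Myh9 (-2.21 ± 0.50), plectin, Plec (-1.73 ± 0.43), and the guanine nucleotide exchange factor Arhgef12 (-2.01 ± 0.59), with limma adjusted p of 0.00404, 0.00616 and 0.015. The Myh9 and Plec sites were both miR-22 8-mers. The Dst call was lost without any 1 of the 3 G12D replicates or without WT replicate 2 (limma adjusted p between 0.0516 and 0.112), with quantile normalization (0.65), in edgeR (1.43) and in DESeq2 (1.65), and the Arhgef12 call without G12D replicate 1 or 2 or WT replicate 1 or 3 (between 0.0509 and 0.0644). The spectrin Sptbn1 held 3 peaks, none of which passed, the highest at 0.98 ± 0.40. That one was called as higher with the replicate block, at equal totals and with quantile normalization (limma adjusted p = 0.0451, 0.0238 and 0.00808).

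RAS-MAPK genes held 5 exon 8-mer peaks in 3 genes, of which 2 rose and none fell, where 15 of all 31 tested peaks of the list were higher and 2 lower. Spred1, an inhibitor of RAS-MAPK signalling, rose at a miR-15/16 site (2.37 ± 0.64, limma adjusted p = 0.01) but not without G12D replicate 3 (limma adjusted p = 0.0876) or after thinning (0.0537). Neither Erbb2 peak passed.

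The list of WNT and colon stem cell genes held 2 exon 8-mer peaks, both higher, where 18 of all 30 tested peaks of the list were higher and 1 lower. Csnk1a1, a kinase of the beta-catenin destruction complex, had a miR-22 site with 324, 188 and 154 normalized reads in G12D against 63.7, 49.3 and 9.02 in WT (log2 fold change 2.73 ± 0.61 SE, limma adjusted p = 0.00371). A peak labelled both Ppnr and Tcf7l2, where Tcf7l2 is a WNT transcription factor, was at 2.72 ± 0.76 (limma adjusted p = 0.0121), a call lost without any 1 of the G12D replicates (limma adjusted p between 0.0569 and 0.0736). The 2 PI3K-AKT-MTOR peaks, in Foxo3 (-0.59 ± 0.55) and Pik3r1 (-0.38 ± 0.66), did not pass, although Pik3r1 was called as lower with quantile normalization (-1.40, limma adjusted p = 0.0471). RNA silencing genes held 7 peaks, in Tnrc6a, Tnrc6b, Dicer1 and Cnot6, of which 1 rose: a miR-210 site in Tnrc6b, which encodes a GW182 partner of Ago2 (2.35 ± 0.63, limma adjusted p = 0.00952), lost without G12D replicate 2 or 3 (limma adjusted p = 0.0649 and 0.0805) and after thinning (1.37, limma adjusted p = 0.202). Of all 20 tested peaks of that list 6 were higher and 0 lower. The highest Dicer1 peak, at a let-7 site, was at 0.75 ± 0.46 and did not pass.

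Of 5 peaks in the translation list 1 fell, in Rps6ka3 (log2 fold change -1.75 ± 0.61 SE, limma adjusted p = 0.0328). Rps6ka3 is a signalling kinase that the list takes in by its symbol, as is Rps6ka1. The Rps6ka3 call was lost without any 1 of the G12D replicates or without WT replicate 1 or 3 (limma adjusted p between 0.0692 and 0.107) and after thinning (0.0793). The ribosomal protein gene Rps27l (-0.74 ± 0.38) and the initiation factor Eif4b (-1.001 ± 0.42) did not pass in the fit on all libraries, though Eif4b did without G12D replicate 3 (limma adjusted p = 0.0448) and with quantile normalization (0.0412). Both were called as lower in edgeR (adjusted p = 0.00801 for Rps27l and 0.00411 for Eif4b) and in DESeq2 (adjusted p = 0.0224 and 0.0130). Of all 33 tested peaks of the translation list 16 were higher and 6 lower. Of 9 peaks in chromatin regulators 6 were tested, with 1 higher, in Bptf (2.14 ± 0.72, limma adjusted p = 0.0273), and 2 lower, in the acetyltransferase Ep300 (-3.08 ± 0.75, limma adjusted p = 0.00577) and the chromatin remodelling subunit Arid2 (-1.27 ± 0.44, limma adjusted p = 0.0314). The Bptf peak had 2 WT reads in all, a ratio of 4.71 with a counting interval of 1.22 to 40.3. The Bptf call was lost without G12D replicate 1 or 3 or WT replicate 2 or 3 (limma adjusted p between 0.0546 and 0.0929), and the Arid2 call without any library other than WT replicate 3 (between 0.0578 and 0.118). With quantile normalization Bptf was at 0.36 (limma adjusted p = 0.702), and it was not called in edgeR or DESeq2 (adjusted p = 0.122 and 0.105). Arid2 was not called without the variance trend or after thinning (limma adjusted p = 0.0732 and 0.151). Of all 32 tested peaks of the chromatin list 11 were higher and 3 lower. The highest chromatin peak, in the histone methyltransferase Kmt2b, did not pass (0.84 ± 0.43), though it did without WT replicate 2 (limma adjusted p = 0.0204). None of 5 ubiquitin peaks passed by limma, where 9 of all 22 tested peaks of the list were higher and 4 lower. The peak in the ubiquitin ligase Ubr4 (-1.09 ± 0.57) was called as lower in edgeR (-1.91, adjusted p = 0.00764), in DESeq2 (-1.72, adjusted p = 0.0175) and with quantile normalization (-1.86, limma adjusted p = 0.00581). Neither of 2 zinc finger peaks passed, in Zfp106 (-0.89 ± 0.68) and Zmiz1 (0.99 ± 0.60), though Zfp106 was called as lower without WT replicate 2 (limma adjusted p = 0.0102), in edgeR (-1.94, adjusted p = 0.00359), in DESeq2 (-1.71, adjusted p = 0.0189) and with quantile normalization (-1.54, limma adjusted p = 0.0300).

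The nuclear noncoding RNAs Neat1 and Malat1 held 5 and 4 exon 8-mer peaks. Of the 7 tested 6 rose and none fell, with a median log2 fold change of 2.86. Among all tested peaks of the series 36.2% were higher and 12.7% lower. By list, 8 of the 9 peaks were in the G12D list only and 1 in the WT list only. Their direction is therefore not independent of the lists. The highest of the Neat1 peaks, at a miR-194 site, had 106, 43.3 and 66.1 normalized reads in G12D against 12.7, 8.69 and 2.58 in WT (3.13 ± 0.56 SE, limma adjusted p = 0.00118). The other Neat1 calls were both at miR-15/16 sites (2.86 ± 0.66 and 2.54 ± 0.94), and the lower of the 2 was lost without any 1 of the G12D replicates or without WT replicate 3 (limma adjusted p between 0.0910 and 0.163), in edgeR (1.29) and in DESeq2 (1.44). The higher was lost without G12D replicate 2 (limma adjusted p = 0.051). In Malat1 a miR-224 site (3.04 ± 0.64) and a miR-139 site (2.47 ± 0.71) rose beside the miR-15/16 site, the miR-139 site not being called without G12D replicate 2 or 3 (limma adjusted p = 0.0696 and 0.0546). With quantile normalization the miR-224 site was at 0.97 and the miR-139 site at 0.88 (limma adjusted p = 0.246 and 0.249), and after thinning neither was called (limma adjusted p = 0.0598 and 0.108). The WT libraries held 1 read in all at the miR-224 site and 2 at the miR-139 site, for ratios of depth-scaled counts of 24.98 (counting interval 4.39 to 996) and 13.7 (3.70 to 114). The miR-22 site, in the WT list only, did not pass at -0.42 ± 0.38. Vil1 held 4 exon 8-mer peaks, with 1 higher. Alas1, the first enzyme of heme synthesis, held 3, with 1 lower, at a miR-34/449 site (-2.07 ± 0.51, limma adjusted p = 0.00595). RP23-22A15.2 held 3, with 1 higher, at 124 reads in G12D and 2 in WT, a ratio of 14.6 (counting interval 3.96 to 122), a call lost with quantile normalization (limma adjusted p = 0.180).

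To see whether a site moved apart from the rest of its transcript, each peak was set against the summed other tested peaks of its gene in the same library. This was possible for 247 of the exon 8-mer peaks, and 46 rose and 53 fell relative to their gene (limma adjusted p under 0.05). Among all 2963 peaks so tested 18.7% rose and 14.8% fell, and the exon 8-mer peaks had a share of rises near that background and a larger share of falls. Their median log2 change of the ratio was -0.24, against 0.44 for all. With a mean of at least 20, where fewer peaks entered, 20 rose and 14 fell, and the share over all peaks at that filter was not computed. Of the 491 exon 8-mer peaks 65.2% were in the G12D list only, against 77.0% of all merged peaks. How far the lists enter the ratios was not tested. Of the 65 peaks that were higher by level and had a ratio, 35 also rose in ratio, and of the 38 that were lower by level 29 also fell in ratio. None went in opposite directions.

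Several abundant sites moved clearly against their own gene. In Pigr the miR-210 site rose by 3.92 ± 0.41 in ratio to the 10 other tested peaks (log2, SE, limma adjusted p = 0.000129), and the miR-96 site fell by 1.19 (± 0.34, limma adjusted p = 0.0191). Fryl at its miR-200b/c/429 site was at -4.16 ± 0.45 (limma adjusted p = 0.000136). Lypd8, which did not pass by level, rose by 2.87 ± 0.35 against its 10 other peaks (limma adjusted p = 0.000218). Atp10b, also not called by level, fell relative to its gene, at -1.22 ± 0.37 (limma adjusted p = 0.0249). Actb at its let-7 site rose by 2.49 ± 0.33 and Atp1b1 by 3.04 ± 0.33 against 11 other peaks each (limma adjusted p = 0.000377 and 0.000136), while Muc2 rose by 1.55 ± 0.44 against 18 (limma adjusted p = 0.0193). In Tnrc6b only 2 peaks were tested, both with an exon 8-mer, so their ratios of 2.32 and -2.32 are 1 measurement.

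**Figure D5:**
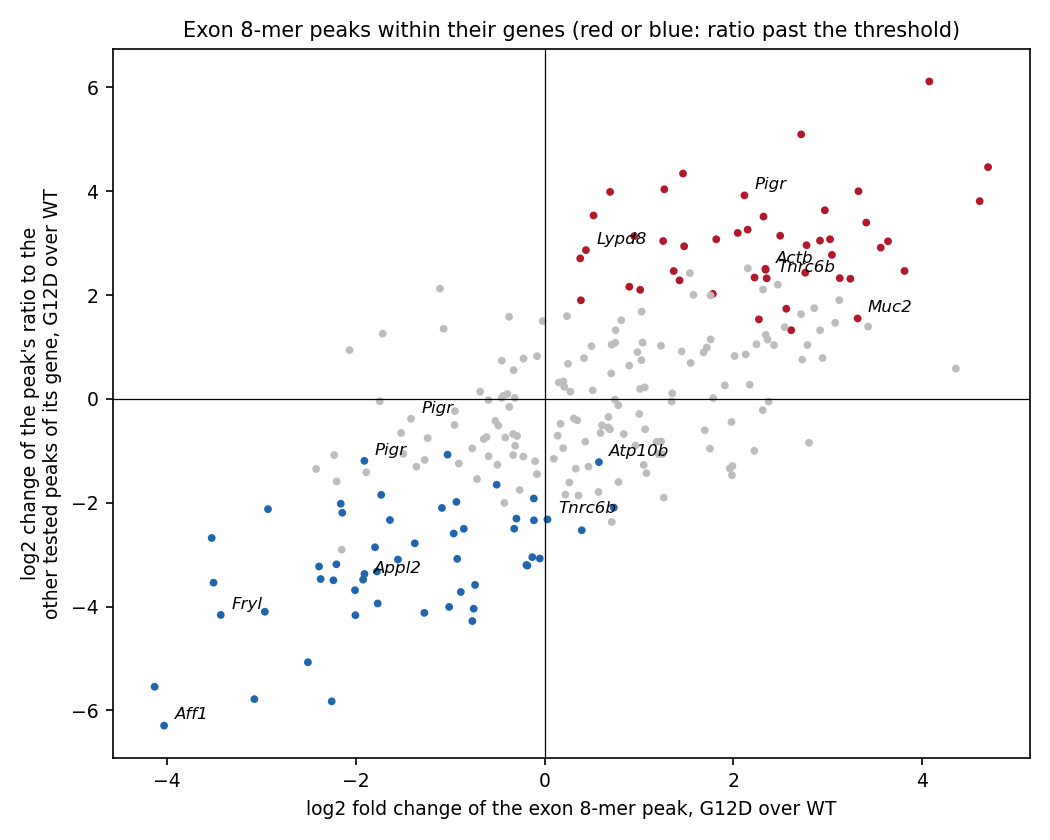
Log2 fold change of each exon 8-mer peak, G12D over WT (horizontal), and log2 change of its ratio to the other tested peaks of its gene (vertical), for 247 peaks. Red and blue points rose or fell in ratio past the threshold; Lypd8 lies near 0 horizontally at 0.44 and at 2.87 vertically, and the 3 labelled Pigr sites lie at 3.92, -0.38 and -1.19 vertically.

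By the authors' deposited table, 126 of the exon 8-mer peaks had an adjusted p under 0.05 with a positive log2 fold change and 78 with a negative one, where 37.9% and 11.6% of all 5504 peaks with a value did. Of these, 104 and 64 were also among the 116 higher and 65 lower peaks here, and none had the opposite direction.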

How the data were processed

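Per the submitters' processing notes, reads were aligned to mm10/GRCm38 with tools that include STAR 2.5.2b and DESeq2; no source used here names the peak caller or the counting rules. The deposited tables hold a signal: reads per merged peak or mature miRNA, divided by the authors with 1 factor per library. With those factors, 100.0% of values above 0 in each library were whole reads within 0.01 of a read. The authors' deposited differential tables hold log2 fold changes with p-values, per the file headers, and the deposited peak lists a score, used only as a record. Peak class, gene and seed families are the authors', per the file headers. miRNA names were matched to RefSeq for 408 of 459, and families joined by shared bases 2 to 8.

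Tests used limma 3.58.1 (R 4.3.3) with a variance trend on values transformed as log2(reads + 1), two-sided, adjusted over all 4438 peaks with a mean of at least 5, or all 254 miRNAs with a mean of at least 10; small values are compressed on this scale. The ratio test used the same model on the difference of logs, and was added after the data were seen. The scripts were tested on simulated data. Intervals cover counting error only. Nothing in the labels ties a library to a separate animal, and p-values cover the spread between these libraries, which may be technical. The labels do not say whether replicate numbers pair libraries. The same-number correlations of deviations were 0.04, -0.04 and -0.01 in pulldown and -0.00031, -0.42 and -0.32 in the miRNA libraries. So few libraries cannot show whether they were paired. The 6 input libraries are not analysed here.

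Named peaks were the 10 with the highest mean; the 8 largest changes each way among called peaks with groups apart; the highest peak of each family with at least 5; 2 per gene list; and genes with at least 3, by count. A few peaks that this rule names are not reported here. Peaks and lists were chosen with earlier results of these data known; further called peaks of the 10 lists and multi-peak genes, and the miR-21 site, were added after their values were seen. Alternatives covered pseudocount, filter, scaling, replicate block, variance trend, thinning, edgeR 4.0.16 with TMM and DESeq2 1.42.0 on recovered reads, and each library left out.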

Additional observations from a re-analysis of the deposited data

How the results depend on the processing

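Called peaks kept their direction under each alternative run, while the balance of calls and the median moved with scaling and filter; where a value moved, the cause was not tested unless fewer peaks or libraries entered. Of the exon 8-mer peaks, 116 were higher and 65 lower with a median log2 fold change of 0.48. Only 49 of the 116 and 46 of the 65 stayed called under every alternative fit other than the raised filter. With the mean raised to at least 20 reads, where fewer peaks were tested, 51 were higher and the median was 0.13, as it was for all tested peaks. Among peaks called in both lists 18 were higher and 30 lower, with a median of -0.47, against -0.45 over all tested peaks in both lists. The lower calls were 111 with quantile normalization, 113 in edgeR and 99 in DESeq2, with medians of -0.26, -0.11 and 0.11. The median was 0.33 with a pseudocount of 5, 0.70 without a filter and 0.67 at equal totals. Leaving out 1 library gave 75 to 124 higher and 50 to 77 lower, with medians of 0.36 to 0.55. The share difference of 2.51 percentage points was 3.35 with the rRNA locus in the denominator, 11.1 among exon peaks and 0.986 for peaks in both lists, and 2.17 to 2.89 without 1 library.

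The family miRNAs had 7 higher and 1 lower. This became 4 and 0 without a filter, 1 and 4 at equal totals, 2 and 2 with quantile normalization, 0 higher without the variance trend, 3 and 2 in edgeR and 4 higher in DESeq2, and 3 to 11 higher and 0 to 4 lower without 1 library. Relative to their gene, 46 peaks rose and 53 fell. These were 20 and 14 at a mean of at least 20, and 32 to 50 and 39 to 59 without 1 library. The labels do not say that replicate numbers pair libraries. With the replicate block, 119 peaks were higher and 67 lower, and 41 rose and 52 fell relative to their gene. The family miRNAs then had 4 higher and 0 lower.

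Values that changed sign were all uncalled on all libraries. In edgeR they were Lypd8 at -0.12, Krt20 at -0.55, Tnrc6b at -0.58, Zbp1 at -0.48, Ctsb at -0.55, Gapdh at -0.33, miR-16-5p at -0.15, miR-23a-3p at -0.052, miR-93-5p at -0.042 and miR-96-5p at -0.13. In DESeq2 they were Krt20 at -0.35, Tnrc6b at -0.37, Zbp1 at -0.27, Ctsb at -0.35, Gapdh at -0.11, miR-16-5p at -0.0087 and miR-96-5p at -0.00057. With quantile normalization they were Zbp1 at -0.074, Ctsb at -0.17, Zmiz1 at -0.36, miR-200c-3p at -0.27, miR-16-5p at -0.070, miR-24-3p at -0.10, miR-23a-3p at -0.045, miR-93-5p at -0.082, miR-200a-3p at -0.13, miR-30e-5p at -0.21 and miR-378a-3p at -0.11. At equal totals they were Ubqln1 at 0.045, miR-200c-3p at -0.11, miR-16-5p at -0.29, miR-24-3p at -0.12, miR-23a-3p at -0.20, miR-93-5p at -0.20, miR-200a-3p at -0.033, miR-30e-5p at -0.11, miR-96-5p at -0.25, miR-375-3p at -0.013 and miR-378a-3p at -0.089. After thinning, Zbp1 was at -0.056 and Pik3r1 at 0.41. Without 1 library, Krt20 ran between -0.15 and 0.49, Tnrc6b between -0.12 and 0.33, Zbp1 between -0.22 and 0.24, Ubqln1 between -0.33 and 0.055, Ctsb between -0.44 and 0.94, Pik3r1 between -0.70 and 0.21, let-7b-5p between -0.19 and 0.15, miR-16-5p between -0.10 and 0.26, miR-96-5p between -0.10 and 0.41, miR-34a-5p between -0.33 and 0.025 and miR-484 between -0.19 and 0.042. A search for the 8-mer in the peaks' own bases was planned and not run. Fold changes of low peaks are limited by few reads: 24 had 0 reads in all WT libraries.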
